A study of Mus musculus with 6 samples.

Results

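A set of 7 genes around the zinc finger protein Zfp335 were examined in regulatory T cells (Tregs) from which Zfp335 had been deleted. They were taken by symbol from the table of read counts and make up 7 of its 32285 rows. Zfp335 is the deleted gene, Zfp335os is a noncoding RNA transcribed from the opposite strand at its start, and Pcif1 is the gene that runs into its end from the other side. Ankle2 has been named as a target of Zfp335, and Vrk1, Banf1 and Cgas encode proteins that act with or beside Ankle2 at the nuclear envelope. The genes were chosen by symbol with their counts in KO and WT libraries already known, and partly because of them, so their differences between the groups are given as a description, with no test.

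The data were bulk RNA-Seq of CD4+CD25+ Tregs sorted from the spleens of C57BL/6 mice, with 3 WT and 3 KO libraries. KO mice carried ERCre and 2 floxed alleles of Zfp335 (labelled ERCre+Zfp335f/f). The labels call the controls wild-type littermates, whereas the methods describe WT mice that also carried ERCre and were likewise given tamoxifen. Per the methods, the mice were 6 weeks old when tamoxifen was first injected on day 1, further injections followed on days 3 and 5, and the spleens were taken on day 7. ERCre, a Cre recombinase held in the cytoplasm until tamoxifen binds it, is not limited to Tregs, so other cells of the KO mice could also lose Zfp335. Whether each library came from 1 mouse or from pooled mice is not given in the sources used here, and p-values measure only the spread between these libraries.

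Zfp335 (ZNF335 in humans) is a nuclear C2H2 zinc finger protein that binds promoters, and ZNF335 and ANKLE2 are both genes in which mutations cause primary microcephaly. When a cell divides, its nuclear envelope is taken apart and rebuilt. The kinase VRK1 phosphorylates the small DNA-binding protein BAF, encoded by Banf1, which then lets go of chromatin and of the LEM domain proteins of the inner nuclear membrane. ANKLE2, itself a LEM domain protein, restrains VRK1 and brings the phosphatase PP2A to BAF, so that BAF can gather the new envelope around the chromosomes. BAF also competes for DNA with cGAS, the sensor encoded by Cgas that makes the second messenger cGAMP from cytosolic or exposed DNA. PCIF1 has a different task: it methylates the first adenosine next to the mRNA cap, which gives m6Am.

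The protein-coding genes Zfp335, Ankle2 and Cgas had lower counts in the KO libraries, and the 250 bases before the RefSeq start of each are shown so that their promoters can be compared. They are from assembly GRCm38.p6, on the strand of the gene, and capitals mark the motifs found in them.
Zfp335, chr2:164911751-164912000, minus strand: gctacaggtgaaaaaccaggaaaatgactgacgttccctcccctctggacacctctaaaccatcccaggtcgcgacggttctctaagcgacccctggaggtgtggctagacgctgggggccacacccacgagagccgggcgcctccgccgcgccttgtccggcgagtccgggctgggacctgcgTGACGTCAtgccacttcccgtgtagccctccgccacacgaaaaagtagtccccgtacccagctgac
Ankle2, chr5:110230754-110231003, plus strand: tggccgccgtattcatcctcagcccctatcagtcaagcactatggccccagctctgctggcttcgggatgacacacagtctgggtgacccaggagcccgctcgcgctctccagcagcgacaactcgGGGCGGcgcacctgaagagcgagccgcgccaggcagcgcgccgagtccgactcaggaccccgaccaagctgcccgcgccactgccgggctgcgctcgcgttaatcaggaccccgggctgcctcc
Cgas, chr9:78443238-78443487, minus strand: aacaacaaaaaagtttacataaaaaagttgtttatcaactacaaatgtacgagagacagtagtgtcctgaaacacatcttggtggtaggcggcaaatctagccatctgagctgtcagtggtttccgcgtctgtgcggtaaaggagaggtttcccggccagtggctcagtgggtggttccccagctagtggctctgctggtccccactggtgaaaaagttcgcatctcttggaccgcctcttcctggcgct
All 7 genes had an entry in the RefSeq promoter table, and 12 windows of 300 bases (250 before and 50 after a start) were used. These lay on the chromosomes of the genes, and any window elsewhere was left out. Both strands were searched for the GC box GGGCGG, the CCAAT box CCAAT, the TATA box TATAAA, the cAMP response element TGACGTCA, the ETS motif CCGGAAG, the E-box CACGTG and the YY1 motif AAGATGGCG. No matches overlapped one another. The Zfp335 window held the cAMP response element, 66 bases before the start, which 1.79% of the 32851 windows of all genes also held. The Ankle2 window held a GC box 124 bases before the start, found in 35.7% of all windows. The Cgas window and 3 of the 4 Vrk1 windows held none of the 7 motifs. The YY1 motif, found in 1.4% of all windows, was in the first Pcif1 window at 58 bases before and 22 bases after the start, and on the minus strand of the Zfp335os window 101 bases before the start. The Zfp335, Ankle2 and Cgas windows shared no motif with one another. GC content was 63.0% for Zfp335, 69.0% for Ankle2 and 53.0% for Cgas, beside a median of 52.7% over all windows.

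The libraries held between 133283969 and 209041812 counts, and 17307 genes were abundant enough to be tested. Of these, 4170 (24.1%) passed the quasi-likelihood test of edgeR at an adjusted p under 0.05. In the KO group 2082 genes (12.0%) were higher and 2088 (12.1%) were lower, and with scaling by library size alone the split was 1622 higher and 2575 lower. Without WT replicate 2 the total was 2740. The KO libraries all lay below the WT libraries for 19.1% of genes and all above for 19.2%. All 8 Treg markers were detected, and their counts summed to 3678 to 3730 CPM (counts per 1000000 counts of the scaled library size) in WT and 3780 to 3836 in KO. The markers did not move together: Ctla4 rose by 0.65 on the log2 scale (edgeR adjusted p = 9.56e-09) and Tnfrsf18 by 0.12 (adjusted p = 0.0434), whereas Foxp3 fell from 1136 ± 17.4 to 1052 ± 9.24 CPM (log2 fold change -0.11, adjusted p = 0.0163) and Il2ra from 480 ± 16.0 to 433 ± 5.99 CPM (-0.15, adjusted p = 0.00658). The call of Foxp3 was lost without any 1 of the KO libraries, that of Il2ra without KO replicate 2 and that of Tnfrsf18 in 7 of 15 alternatives. Markers of other cells differed between the groups. The 6 B cell markers summed to 57.9 to 63.1 CPM in WT and 27.7 to 29.1 in KO, the 7 myeloid markers to 51.5 to 58.6 and 27.1 to 29.3, and the 6 red cell markers to 36.6 to 43.5 and 1.81 to 2.31. Of the myeloid markers 5 were called lower, with Ngp, S100a9 and S100a8 lowest at log2 fold changes of -4.70, -4.32 and -3.87. Cd68 (-0.23) and Csf1r (0.22) were not called, and Csf1r was higher in all KO libraries than in all WT libraries. The 5 CD8 and NK cell markers summed to 18.9 to 20.0 CPM in WT and 18.6 to 20.1 in KO. Xist, the RNA that coats the inactive X chromosome, was at 0.187 to 0.424 CPM in WT and 124 to 145 CPM in KO, and Y-linked genes were present in every library. Of these, Ddx3y (98.3 to 105 CPM in WT and 76.6 to 80.0 in KO), Kdm5d (42.3 to 44.7 and 34.9 to 36.5) and Uty (17.2 to 17.6 and 11.5 to 12.2) were lower in all KO libraries than in all WT libraries, whereas Eif2s3y overlapped (44.1 to 49.7 and 45.3 to 48.1). Every KO library thus held both Xist and Y-linked RNA, whereas the WT libraries held Y-linked RNA with Xist at no more than 0.424 CPM. Whether the KO libraries mixed cells of male and female mice was not tested. The sexes of the mice are not given in the sources used here, so sex and genotype cannot be told apart. None of the 7 genes lies on the X or Y chromosome.

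Zfp335, the targeted gene, had 124, 121 and 115 CPM in the 3 WT libraries and 15.0, 14.3 and 15.1 CPM in the 3 KO libraries. All KO libraries lay far below all WT libraries, and the libraries of each group were close together. The means were 120.1 ± 4.67 CPM for WT and 14.8 ± 0.451 CPM for KO (SD, n = 3), so KO kept 12.3% of the WT level, a log2 fold change of -3.02 (SE 0.046). Among the 11076 genes with an average of at least 1 log2 CPM, 8 had a lower log2 fold change. The table gives 1 count per gene, so reads from deleted and retained exons were not separated. In these bulk samples, fewer cells that express a gene and less of its RNA per cell cannot be told apart.

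Zfp335os was at 1.63, 1.34 and 1.06 CPM in WT and at 0.202, 0.203 and 0.322 CPM in KO. It was the scarcest of the 7 genes, and its WT libraries were spread over a wider relative range than those of Zfp335. The group means were 1.34 ± 0.282 and 0.242 ± 0.0692 CPM (SD, n = 3), and the log2 fold change was -2.49 (SE 0.27). Per 100 counts of Zfp335 there were 1.11 ± 0.192 counts of Zfp335os in WT and 1.63 ± 0.432 in KO. The ratio was 1.31, 1.11 and 0.923 in WT and 1.35, 1.42 and 2.13 in KO. The noncoding RNA was thus low in the same libraries as Zfp335, and its log2 fold change had the larger SE.

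Pcif1, the cap methyltransferase gene, was at 185, 168 and 166 CPM in WT and at 171, 171 and 164 CPM in KO. The groups overlapped, and their means of 172.7 ± 10.4 and 168.9 ± 3.98 CPM (SD, n = 3) differed by less than the SD of the WT libraries. Its log2 fold change was -0.03 (SE 0.042). Zfp335 therefore went from 69.6 ± 2.24 counts per 100 counts of Pcif1 in WT to 8.76 ± 0.429 in KO, while the counts of Pcif1 itself overlapped between the groups.

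These 3 genes share transcribed sequence. In GENCODE release 21 on GRCm38, Zfp335 lies at chr2:164891882-164911757 on the minus strand and Pcif1 at chr2:164879304-164894454 on the plus strand, and their ends overlap tail to tail. The overlap covers 1107 exon bases, which is 23.3% of the exon bases of Zfp335 and 16.9% of those of Pcif1. Zfp335os lies at chr2:164911354-164919953 on the plus strand, and its first exon shares 234 bases with Zfp335, which is 18.4% of the exon bases of Zfp335os. The setting for strand in the counting is not given in the sources used here, so reads from the shared exons may have been credited to either gene or left out. For Zfp335os in particular, its own reads and those of Zfp335 cannot be told apart in the overlap.

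**Figure D1:**
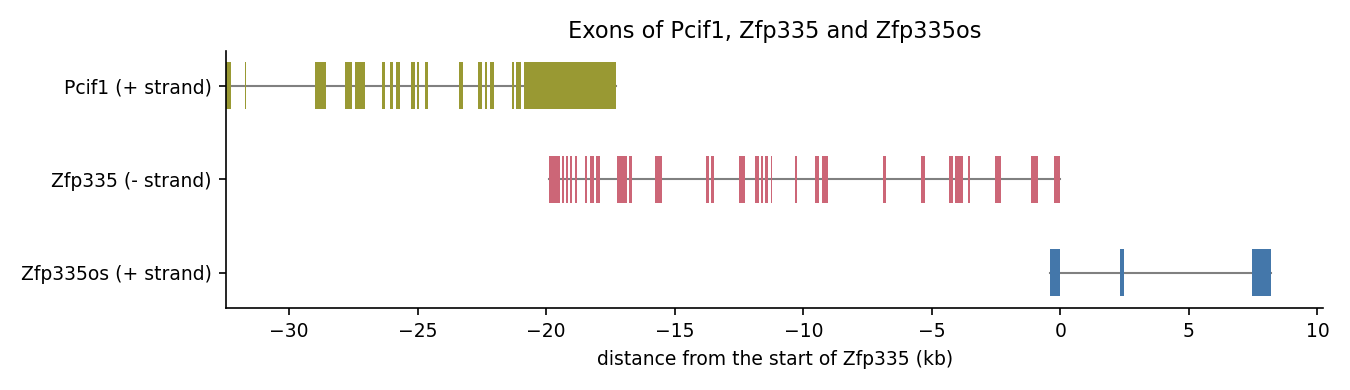
Exons (boxes) of Pcif1, Zfp335 and Zfp335os by distance in kilobases from the start of Zfp335, with the strand of each gene on the y axis. Pcif1 and Zfp335 overlap at their ends over 1107 exon bases, and Zfp335os and Zfp335 overlap at their starts over 234.

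Ankle2, the adaptor between PP2A and BAF, had 54.5, 54.5 and 55.3 CPM in the WT libraries. In the KO libraries it had 21.3, 22.5 and 23.3 CPM. The lowest WT library was thus 31.2 CPM above the highest KO library, and neither group varied much. The means were 54.8 ± 0.480 CPM for WT and 22.4 ± 1.03 CPM for KO (SD, n = 3). KO kept 40.8% of the WT level, with a log2 fold change of -1.29 (SE 0.045). Of the 11076 genes with at least 1 log2 CPM on average, 37 had a lower log2 fold change than Ankle2. Ankle2 lies at chr5:110231004-110256651 on the plus strand and shares 198 exon bases with the antisense gene Gm43137, and only 2.73% of the 50-base stretches of its transcripts also occur in transcripts of other genes.

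Vrk1, the kinase that phosphorylates BAF, was at 58.7, 61.4 and 65.3 CPM in WT and at 59.8, 60.0 and 61.4 CPM in KO. The KO libraries all lay within the range of the WT libraries. The means were 61.8 ± 3.34 and 60.4 ± 0.871 CPM (SD, n = 3), with a log2 fold change of -0.03 (SE 0.043). The gene lies at chr12:106010228-106077426, and none of its 50-base stretches occurs in another gene.

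Banf1, which encodes BAF, was at 101, 89.5 and 75.3 CPM in WT and at 87.7, 92.3 and 83.8 CPM in KO. Again the KO libraries lay within the WT range, which was the widest in CPM of the 7 genes. The means were 88.5 ± 12.7 and 87.9 ± 4.26 CPM (SD, n = 3), and the log2 fold change was -0.01 (SE 0.10). Banf1, at chr19:5364638-5367168 on the minus strand, shares 428 exon bases with Eif1ad on the plus strand, which is 28.6% of its exon bases, so part of its count could belong to that gene. Per 100 counts of Eif1ad there were 203 ± 28.5 counts of Banf1 in WT and 187 ± 13.1 in KO.

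The balance within this group of genes differed between the genotypes. For 100 counts of Vrk1 there were 88.8 ± 4.12 counts of Ankle2 in WT and 37.0 ± 1.28 in KO. For 100 counts of Banf1 there were 62.9 ± 9.81 counts of Ankle2 in WT and 25.5 ± 2.01 in KO (SD, n = 3). The RNA of Ankle2 was thus lower relative to both the kinase and its substrate.

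Cgas was at 8.11, 7.99 and 8.54 CPM in WT and at 6.39, 6.63 and 6.27 CPM in KO. The groups did not overlap but were only 1.37 CPM apart. The means were 8.21 ± 0.286 and 6.43 ± 0.182 CPM (SD, n = 3), so KO kept 78.2% of the WT level, with a log2 fold change of -0.35 (SE 0.072). Cgas lies at chr9:78430526-78443237 on the minus strand and shares 201 exon bases with the pseudogene Gm8093. B cells and myeloid cells also express Cgas, and the summed B cell and myeloid markers given above were lower in KO. The myeloid markers did not all fall, and Csf1r was higher in all KO libraries (log2 fold change 0.22, not called). The part of B cells and myeloid cells in the level of Cgas was not tested.

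**Figure D2:**
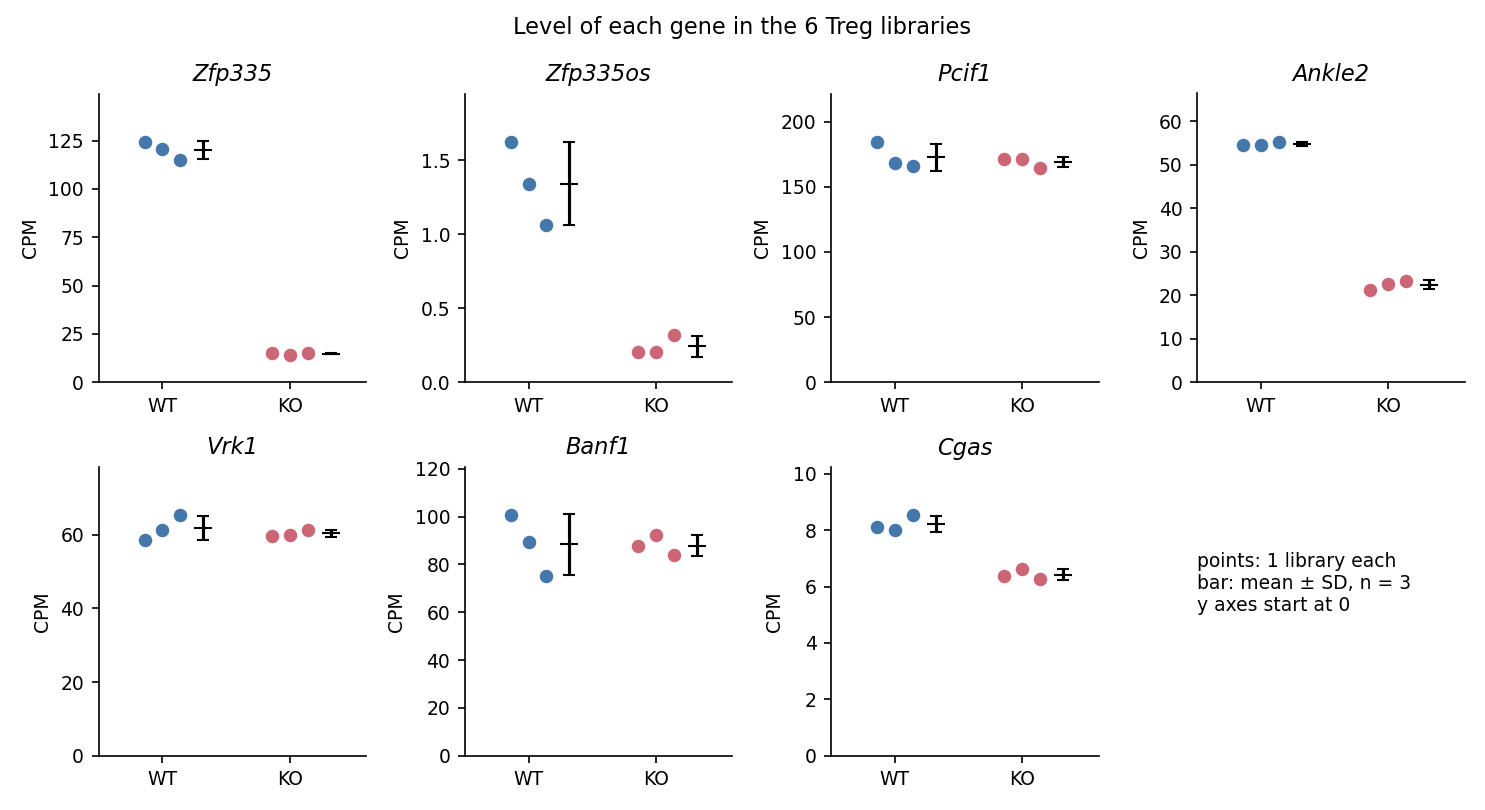
CPM (y axes, from 0) of the 7 genes in each WT and KO library, with 1 point per library and the mean ± SD of 3 libraries beside the points. KO points lie below all WT points for Zfp335, Zfp335os, Ankle2 and Cgas, and the groups overlap for Pcif1, Vrk1 and Banf1.

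All 7 genes passed the filter on low counts. By the threshold used for all genes, 4 of the 7 (Zfp335, Zfp335os, Ankle2 and Cgas) were lower in KO, 0 were higher and 3 were not called, beside 24.1% called, 12.1% lower and 12.0% higher over all genes. For the same 4 genes the highest KO library was below the lowest WT library, beside 19.1% of all genes. These counts were fixed by how the genes were chosen.

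Levels of different genes can be compared per kilobase of exon. On this scale the order in WT was Banf1 with 59.1 ± 8.50 CPM per kilobase, Pcif1 with 26.4 ± 1.59, Zfp335 with 25.3 ± 0.984, Vrk1 with 12.1 ± 0.653, Ankle2 with 9.93 ± 0.0870, Cgas with 1.99 ± 0.0692 and Zfp335os with 1.05 ± 0.222 (SD, n = 3). Of the neighbours in that order, only Pcif1 and Zfp335 overlapped in the WT libraries. In KO, Zfp335 had 3.12 ± 0.0951 CPM per kilobase and Ankle2 had 4.05 ± 0.186, so that Zfp335 changed from above to below Vrk1 and Ankle2 in the order. The other genes kept their order relative to one another. Their KO levels were 58.8 ± 2.85 for Banf1, 25.8 ± 0.608 for Pcif1, 11.8 ± 0.170 for Vrk1, 1.56 ± 0.0441 for Cgas and 0.190 ± 0.0543 for Zfp335os. Exon lengths were those of all annotated transcripts of a gene joined together, and the isoforms in use in Tregs were not measured.

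**Figure D3:**
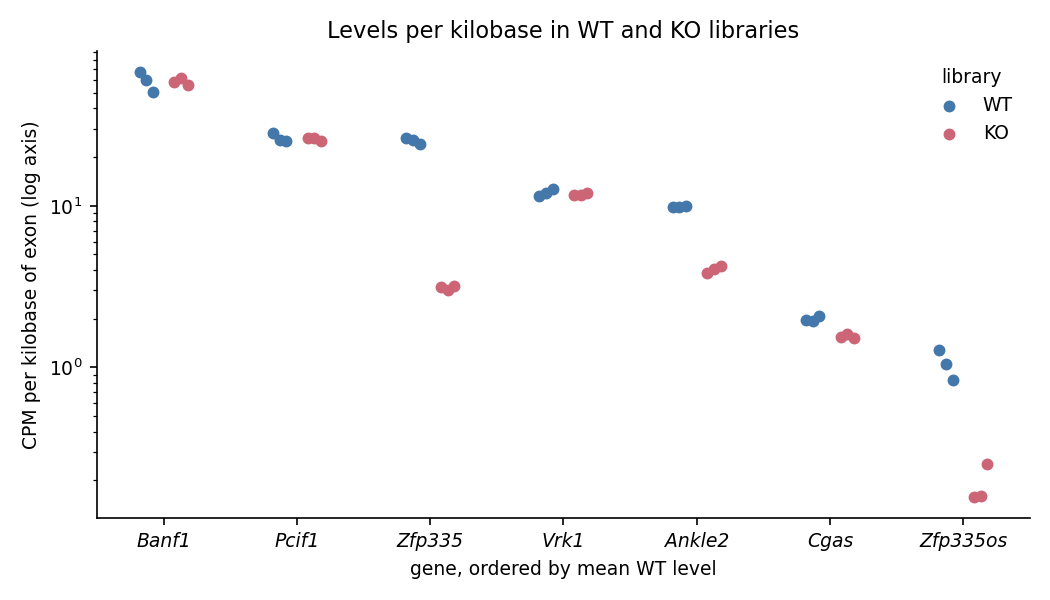
CPM per kilobase of exon (log axis) of the 7 genes, ordered by mean WT level, with 1 point per library. WT points of Pcif1 and Zfp335 lie side by side, and in KO Zfp335 lies below Vrk1 and Ankle2.

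Genes whose pattern over the 6 libraries was most like that of Ankle2 were found by the root mean square difference of centred log2 CPM, over 11075 other genes. Among the nearest were Psmg2, a proteasome assembly chaperone (difference 0.0741), Dph6, an enzyme of diphthamide synthesis (0.0911), Pcbd2 (0.0926) and Cnpy2 (0.0955). Psmg2 had 22.5 ± 1.08 CPM in WT and 9.29 ± 0.310 in KO (SD, n = 3). Because these genes were chosen by this pattern, their log2 fold changes, between -1.41 and -1.20, had to lie close to that of Ankle2. No gene came as near to Zfp335, for which the smallest differences were 0.463 for Nme6, 0.511 for Cd163l1, 0.519 for Spp1, 0.528 for Gm10800 and 0.555 for the globin gene Hbb-bt. Nme6 had 3.51 ± 0.122 CPM in WT and 0.811 ± 0.0689 in KO (SD, n = 3). Hbb-bt is one of the red cell markers.

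Around these 7 genes, most genes of the nuclear envelope did not pass the test. Of 74 genes tested in 6 lists (LEM domain proteins, BAF kinases and phosphatases, lamina, LINC complex, nuclear pore and ESCRT-III), 10 were higher and 5 lower in KO, which is 20.3% beside 24.1% over all genes. The median log2 fold change was 0.0062 beside -0.0042 over all genes, and the values ran from -0.41 to 0.56, so no other gene of these lists had a log2 fold change as low as that of Ankle2. With scaling by library size alone, 9 were higher and 10 lower. Without WT replicate 1 the count was 27, of which 19 were higher.

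Among the LEM domain proteins, the relatives of Ankle2, 2 of 5 tested were higher and 0 lower (40.0% beside 24.1%). Lemd3, which encodes the inner membrane protein MAN1, rose from 59.3 ± 2.21 to 72.2 ± 2.40 CPM (SD, n = 3) with a log2 fold change of 0.28 (SE 0.042, adjusted p = 0.000265 by edgeR). Emd, which encodes emerin and lies on the X chromosome, rose by 0.14 on the log2 scale (SE 0.036, adjusted p = 0.0138), a call that was lost when any 1 of the 3 KO libraries was left out. Tmpo, the gene of LAP2, had a log2 fold change of -0.04 and Lemd2 of 0.12, and neither passed. Ankle1, the closest relative by name, was at 6.50 ± 0.360 CPM in WT and 5.88 ± 0.269 in KO and did not pass.

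Of the 9 kinase and phosphatase genes that act on BAF or are close relatives of those that do, 1 was higher and 0 lower. That is 11.1% called beside 24.1% over all genes. Ppp2r2d, a regulatory subunit of PP2A, rose by 0.17 on the log2 scale (SE 0.047, adjusted p = 0.0173), and the call was lost without WT replicate 2, KO replicate 2 or KO replicate 3. The catalytic subunit gene Ppp2ca was at 230.0 ± 11.9 CPM in WT and 233 ± 3.70 in KO, with a log2 fold change of 0.02. Vrk2, the relative of Vrk1, had a log2 fold change of -0.17 (SE 0.068, adjusted p = 0.0993).

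Of 7 genes of the lamina, 1 was higher and 1 lower (28.6% beside 24.1% over all genes). Lmna, the gene of lamins A and C, had 39.3, 36.5 and 35.7 CPM in WT and 53.4, 51.6 and 49.8 CPM in KO. All KO libraries were above all WT libraries, and the log2 fold change was 0.47 (SE 0.047, adjusted p = 9.11e-06 by edgeR). Lmnb1, a B-type lamin, fell from 171.8 ± 9.99 to 151.3 ± 0.575 CPM (log2 fold change -0.18, adjusted p = 0.00544). In the LINC complex, which ties the envelope to the cytoskeleton, Syne2 (nesprin-2) fell by 0.32 on the log2 scale (adjusted p = 0.000783) and Tor1aip2, an activator of torsins, rose by 0.16 (adjusted p = 0.00358), out of 9 tested. These were 22.2% of that list beside 24.1% over all genes.

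The nuclear pore held 7 of the 15 called genes, 5 higher and 2 lower of 29 tested (24.1% beside 24.1% over all genes). Ndc1, a membrane-anchored pore protein, had 12.8, 13.5 and 14.3 CPM in WT and 20.4, 19.7 and 19.3 CPM in KO, the largest rise of the 6 lists (log2 fold change 0.56, SE 0.058, adjusted p = 1.36e-05). Aaas, whose product aladin is held at the pore by NDC1, rose from 47.0 ± 1.39 to 59.4 ± 1.75 CPM (log2 fold change 0.34, adjusted p = 5.22e-05). Nup50 and Pom121 rose by 0.23 and 0.20 on the log2 scale. Nup205 of the inner ring fell from 94.2 ± 5.17 to 71.2 ± 0.353 CPM (log2 fold change -0.41, adjusted p = 1.28e-05), and Nup85 of the outer ring had a log2 fold change of -0.32 (adjusted p = 8.64e-05). Of 15 ESCRT-III genes, which seal the new envelope, only Chmp2a passed, with a log2 fold change of -0.19 (adjusted p = 0.00269), while Chmp7, which starts the sealing, was at 0.05. The share called in the ESCRT-III list was 6.67% beside 24.1% over all genes.

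Beyond Cgas itself, 5 of 19 genes of the cGAS-STING pathway were called, 4 lower and 1 higher (26.3% beside 24.1%). Sting1, the receptor for cGAMP, had 226, 211 and 216 CPM in WT and 197, 194 and 191 CPM in KO. The groups did not overlap, but the log2 fold change was small at -0.17 (SE 0.035, adjusted p = 0.00361 by edgeR). Irf3, the transcription factor activated through STING, had a log2 fold change of -0.12 (adjusted p = 0.0328), and its call was lost without WT replicate 2, KO replicate 2 or KO replicate 3. Samhd1, which degrades dNTPs, fell from 997 ± 18.9 to 872 ± 5.94 CPM (log2 fold change -0.19, adjusted p = 0.000448). Zbp1, a sensor of Z-form nucleic acids, fell from 141.9 ± 5.54 to 119 ± 3.50 CPM (log2 fold change -0.25, adjusted p = 0.000393). Enpp1, which breaks down cGAMP, rose by 0.22 on the log2 scale (adjusted p = 0.0173), and the call was lost without WT replicate 2 or KO replicate 3. Tbk1, the kinase below STING, was at 62.6 ± 0.0854 CPM in WT and 66.0 ± 0.348 in KO and did not pass. Trex1, the DNase that removes cytosolic DNA, had the lowest log2 fold change of the list at -1.13, but its SE was 0.47 and its groups overlapped. Without KO replicate 3, the pathway had 3 called genes, all lower. As for Cgas, the part of the B cell and myeloid markers in these values was not tested.

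**Figure D4:**
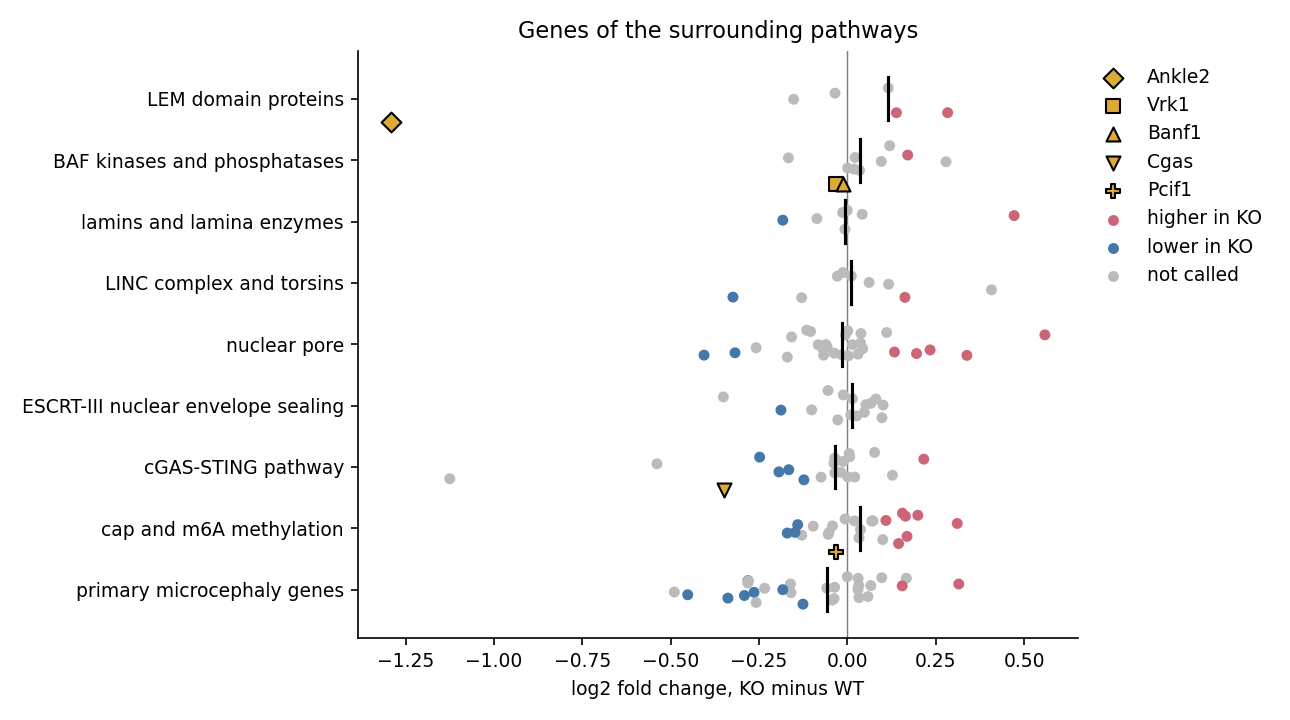
log2 fold change (KO minus WT, x axis) of every tested gene of 9 lists, with 1 point per gene, coloured by call at an adjusted p under 0.05, and the median of each list as a bar. Gold symbols are 5 of the 7 chosen genes, beside their lists, and Ankle2 at -1.29 lies to the left of every listed gene.

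Genes that work beside Pcif1 in methylation of the mRNA cap and of internal adenosines (m6A) were called in 10 of 22 cases, 7 higher and 3 lower (45.5% beside 24.1%), with Pcif1 itself not called. Their differences were small, and the median log2 fold change was 0.04. Cbll1, a subunit of the m6A writer complex, rose by 0.31 on the log2 scale (SE 0.047, adjusted p = 0.000339), and the m6A reader Ythdf2 by 0.20 (adjusted p = 0.0014). The cap 2'-O-methyltransferase Cmtr1 rose by 0.16 and Ramac, the activator of the cap guanine methyltransferase, by 0.16. Fto, which can remove the mark that PCIF1 writes, rose from 51.3 ± 0.971 to 56.7 ± 0.635 CPM (log2 fold change 0.14, adjusted p = 0.0129). In the writer complex, Mettl3, Wtap and Rbm15b were the 3 lower genes, with log2 fold changes of -0.14, -0.17 and -0.15. The calls of Cmtr1, Ramac, Fto, Mettl3, Wtap and Rbm15b were each lost when at least 1 library was left out.

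Of 29 other genes linked to primary microcephaly, as Zfp335 and Ankle2 are, 2 were higher and 7 lower (31.0% beside 24.1%). Knl1, a kinetochore scaffold, fell from 7.04 ± 1.0 to 5.13 ± 0.495 CPM (log2 fold change -0.45, SE 0.11, adjusted p = 0.0101), a call lost without WT replicate 2 or KO replicate 1. The centriole gene Cenpj fell by 0.26 on the log2 scale (adjusted p = 0.00593) and Trappc14 by 0.29 (adjusted p = 0.000345). Kif14, a mitotic kinesin, had a log2 fold change of -0.34 (adjusted p = 0.0145), and its call was lost without WT replicate 2, KO replicate 2 or KO replicate 3. Mfsd2a, a lipid transporter, rose by 0.32 on the log2 scale (adjusted p = 0.0093), a call lost without WT replicate 2. The best known gene of the list, Aspm, was at 11.8 ± 1.98 CPM in WT and 10.0 ± 0.745 in KO and did not pass. Lmnb1 is a gene of both this list and that of the lamina.

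A further 6 genes that the study named as targets of Zfp335 were all called, 4 lower and 2 higher. Over all genes 24.1% were called, 12.1% lower and 12.0% higher. Ndufa4, a mitochondrial respiratory chain protein, fell from 43.5 ± 3.40 to 26.9 ± 0.563 CPM (log2 fold change -0.69, SE 0.056, adjusted p = 1.39e-06). Hadha, an enzyme of fatty acid oxidation, fell from 133 ± 5.73 to 99.4 ± 0.624 CPM (log2 fold change -0.42, adjusted p = 2.98e-06). Actr2 fell by 0.12 on the log2 scale, and Bcl6 and Tcf7 rose by 0.34 and 0.11. Ankle2, with 40.8% of its WT level left, was lower by more than any of these. Some of these genes were reported by the study in these same libraries, so they are not independent evidence of a direction. The calls of 2 genes were lost in alternatives: that of Actr2 without WT replicate 2, KO replicate 1 or KO replicate 2, and that of Tcf7 in 8 of 15.

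Genes on either side of Zfp335 were examined within 500 kb of its start. Of 26 tested, leaving out Zfp335, Zfp335os and Pcif1, 8 were lower and 1 was higher (34.6% beside 24.1%). The nearest gene on the far side of the Zfp335 start was Mmp9, the gene of a secreted gelatinase, 29.0 kb away. It had 10.4, 10.6 and 9.78 CPM in WT and 5.36, 4.67 and 4.63 CPM in KO, with a log2 fold change of -1.08 (SE 0.081, adjusted p = 6.33e-07 by edgeR). Slc12a5 at 49.0 kb, Cd40 at 144 kb and Pltp at -54.0 kb, where a minus sign means the Pcif1 side, had fewer than 4 CPM in every library and fell by 0.86, 0.76 and 0.86 on the log2 scale. The call of Cd40 was lost without KO replicate 1 or KO replicate 2. Ctsa, a lysosomal protease at -78.9 kb, fell from 149.6 ± 3.34 to 130.1 ± 2.63 CPM (log2 fold change -0.20, adjusted p = 0.000751), and Ube2c, a ubiquitin-conjugating enzyme of the cell cycle at -142 kb, had a log2 fold change of -0.44 (adjusted p = 8.54e-05). Sdc4, at -468 kb, was the 1 higher gene, at 0.27 (adjusted p = 0.00194). Between these lay genes with no call, among them Pcif1 and, at 123 kb, Ncoa5 with 76.8 ± 3.46 CPM in WT and 74.3 ± 1.43 in KO. Mmp9 is a gene of neutrophils and Cd40 one of B cells. All 6 B cell markers were called lower in KO, as were 5 of the 7 myeloid markers, among them S100a8, S100a9 and Ngp. The myeloid markers Cd68 (log2 fold change -0.23) and Csf1r (0.22) were not called. Csf1r was higher in all KO libraries than in all WT libraries. The part of B cells and myeloid cells in the values of these neighbours was not tested.

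**Figure D5:**
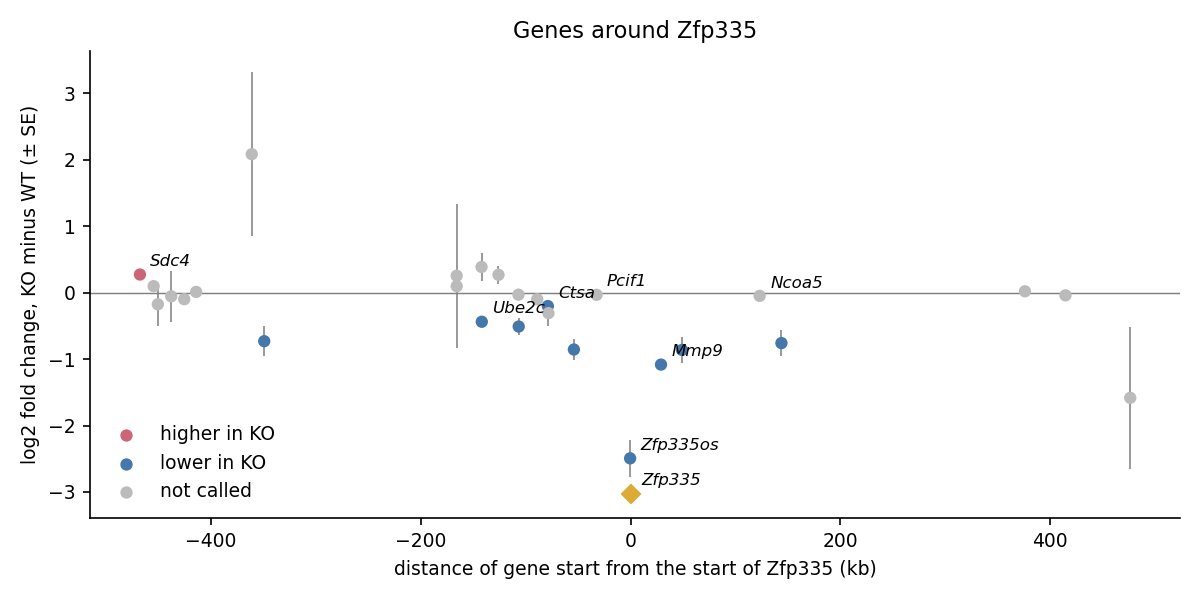
log2 fold change (KO minus WT, ± SE) of tested genes by the distance of their start from that of Zfp335 in kilobases, with negative distances on the Pcif1 side, coloured by call. Zfp335 (gold) and Zfp335os are lowest, at -3.02 and -2.49, and Pcif1 lies at -0.03.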

How the data were processed

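The authors deposited raw counts of reads per gene symbol for the 6 libraries, made from Illumina TruSeq RNA libraries. The submitters' processing notes name HISAT2, DESeq2 and mm10; the program that made these counts and its strand setting are not given in the sources used here (StringTie is named for TPM of the study's Foxp3Cre libraries, not for these). Of 32285 rows, 40 repeat a symbol. Low counts were unusual (1045 entries of 2 but 620 of 1), so no counting error was derived from depth.

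Libraries were grouped by their labels. Counts were fitted in R 4.3.3 with edgeR 4.0.16 (TMM scaling, filterByExpr, robust quasi-likelihood F-test, Benjamini-Hochberg adjustment over 17307 genes), with calls made below an adjusted p of 0.05. Alternatives used limma 3.58.1, DESeq2 1.42.0, other scalings and filters, a replicate block and leaving out each library. The script was tested on simulated data. CPM use TMM-scaled library sizes, and log2 CPM a prior count of 2. Positions are from GENCODE release 21 (GRCm38) and promoters from RefSeq.

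The 7 genes and all lists were chosen with earlier results of these data known. Described in full were, per list, up to 6 called genes with the largest log2 fold change in size, and the best known gene. WT and KO libraries of the same number were not treated as pairs, since the labels do not say that they are. The correlations of their deviations were 0.05, -0.01 and -0.03 over 11076 genes. Such correlations cannot show whether the animals were paired. The values of some listed genes are not reported here.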

Additional observations from a re-analysis of the deposited data

How the results depend on the processing

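Over 15 alternatives, no log2 fold change of the 7 genes moved by more than the spread of the libraries. It ran from -3.05 to -3.0 for Zfp335, -2.75 to -2.34 for Zfp335os, -1.32 to -1.26 for Ankle2, -0.38 to -0.32 for Cgas, -0.06 to 0.02 for Pcif1, -0.07 to 0.01 for Vrk1 and -0.11 to 0.09 for Banf1. Leaving out 1 library gave 2740 (without WT replicate 2) to 4996 called genes, 12 (without KO replicate 2) to 27 (without WT replicate 1) in the nuclear envelope, 3 (without KO replicate 3) to 6 in the cGAS-STING pathway and 6 to 12 near Zfp335. The causes were not tested. With the replicate block, which treats libraries of the same number as pairs, the 4 counts were 4227, 17, 6 and 9. Of the 74 called genes of all lists, markers included, 46 kept their call under every alternative and 28 lost it at least once. Those that lost it in more than 4 alternatives were Wdr62, Tcf7, Tnfrsf18, Wfdc2, Alkbh5, Cenpe and Nup88. With groups of 3 libraries no outlier test was made.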
